A study of Mus musculus with 6 samples.

Results

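The glutathione transferase and aldehyde dehydrogenase genes of the mouse submandibular gland were followed across its epithelial cell classes and across irradiation. All gene symbols that begin with Aldh, or with Gst and a class letter (a, k, m, o, p, t or z) before a digit, were taken from the feature tables. This gave 43 members among 32285 measured genes, 21 aldehyde dehydrogenases and 22 glutathione transferases, and membership follows from the symbol alone. The members were read in 3 single-cell RNA libraries, each a pool of cells from 3 female C57BL/6J mice marked by antibody hashtags, so that the mouse is the replicate (n = 3 in every group). The first library held cells of untreated glands sorted as Epcam-positive with high Cd49f (the basal sort). The second held all Epcam-positive cells of untreated glands (the untreated epithelium). The third held all Epcam-positive cells of left submandibular glands that had received 30 Gy and were taken 90 days later (the irradiated epithelium). In the sample titles the first and second libraries are called wild-type and the third irradiated. All 3 were enzymatically dissociated and sorted without cells that bore Cd3, Cd16/32, Cd31 or Cd45. Every mouse is labelled as 8 to 10 weeks old, which cannot be the age at collection of those kept for 90 days after irradiation. No unirradiated gland of the same age was among the samples, and each group is 1 library, so group, library and, for irradiation, age cannot be told apart.

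Glutathione transferases join the tripeptide glutathione to electrophiles, among them drugs, lipid peroxidation products and quinones, which makes these compounds more soluble and ready for export. Their cytosolic classes differ in substrates: alpha-class Gsta4 favours the lipid aldehyde 4-hydroxynonenal, omega-class Gsto1 acts mostly as a thioltransferase, and the kappa enzyme sits in mitochondria and peroxisomes. Aldehyde dehydrogenases oxidise aldehydes to acids. The Aldh1a enzymes make retinoic acid, the mitochondrial Aldh2 clears acetaldehyde and lipid aldehydes, Aldh3a1 handles aromatic and lipid aldehydes and is best known from the cornea, and Aldh1l1 and Aldh1l2 oxidise formyl-tetrahydrofolate. High aldehyde dehydrogenase activity is widely used to enrich stem and progenitor cells from epithelia. In the submandibular gland, saliva made in acini passes through intercalated ducts, granular ducts rich in kallikreins and growth factors, and larger ducts that hold ionocytes. Krt5- and Krt14-positive basal duct cells and contractile myoepithelial cells lie beneath the luminal layer.

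The upstream sequences of members that the comparisons turn on are shown first. RefSeq start sites on GRCm38.p6 were at hand for 35 of the 43 members, and the 250 bases before each start were searched on both strands. The antioxidant response element (TGACNNNGC), bound by Nrf2 with small Maf proteins, was found for 5 of these 35 members, in 5 of their 45 windows. Of all 32851 windows 10.2% held it. The core of the xenobiotic response element (GCGTG), bound by the aryl hydrocarbon receptor, was found for 11 of 35 members, in 12 of their 45 windows. Of all windows 28.2% held it. A forkhead motif (TGTTTAC) was found for 0 of 35 members and in 3.17% of windows. A match describes the letters only. In the sequences of Gstm5 (chr3:107895604-107895853, plus strand), of Gstm1 (chr3:108017974-108018223, minus strand), of Gstp1 (chr19:4037913-4038162, minus strand) and of Gsto1 (chr19:47854723-47854972, plus strand), printed in the direction of the gene with matches in capitals, Gstm5 held the antioxidant element TGACCACGC. The reverse complement of the xenobiotic core lay within it and again farther upstream. Gstm1 and Gstp1 each held 1 xenobiotic core, and Gsto1 held none of the searched motifs. Only the TGAC form of the antioxidant element was searched. Forms with G at the fourth letter, such as tgagtcagc in the Gstp1 sequence, were not counted.
Gstm5: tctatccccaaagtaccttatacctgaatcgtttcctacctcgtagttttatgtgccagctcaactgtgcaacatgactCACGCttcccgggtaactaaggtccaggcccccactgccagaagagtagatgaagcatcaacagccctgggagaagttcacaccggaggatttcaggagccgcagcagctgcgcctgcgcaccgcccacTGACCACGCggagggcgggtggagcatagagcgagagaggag
Gstm1: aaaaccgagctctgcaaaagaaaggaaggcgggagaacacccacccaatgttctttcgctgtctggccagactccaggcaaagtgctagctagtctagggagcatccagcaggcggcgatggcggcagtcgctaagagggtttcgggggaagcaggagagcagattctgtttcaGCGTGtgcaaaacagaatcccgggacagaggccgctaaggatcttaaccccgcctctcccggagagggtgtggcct
Gstp1: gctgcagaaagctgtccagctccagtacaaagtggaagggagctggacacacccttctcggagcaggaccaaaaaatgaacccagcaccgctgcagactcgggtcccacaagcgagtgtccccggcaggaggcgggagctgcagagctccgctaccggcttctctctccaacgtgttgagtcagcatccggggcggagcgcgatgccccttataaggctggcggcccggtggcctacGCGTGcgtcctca
Gsto1: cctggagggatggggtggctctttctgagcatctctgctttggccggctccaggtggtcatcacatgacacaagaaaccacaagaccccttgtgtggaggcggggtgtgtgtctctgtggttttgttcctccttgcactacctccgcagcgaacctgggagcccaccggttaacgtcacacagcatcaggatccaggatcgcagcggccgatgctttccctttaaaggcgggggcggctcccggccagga

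After filters on gene number, mitochondrial share, hashtag and predicted doublets, the basal sort kept 3073 cells, the untreated epithelium 2090 and the irradiated epithelium 2062, with a total of 7126772 to 27813793 UMIs (unique transcript counts) per mouse. The hashtags gave no call for 22.6%, 43.4% and 11.2% of the barcodes that passed the quality filter. The pairs of libraries shared 15, 1 and 8 barcodes. Cells were clustered without the 43 members, and classes were named from marker lists. In the basal sort 2507 cells were basal duct-like, and in the 3 untreated mice 14, 24 and 19 cells were. The irradiated mice held 5, 7 and 0 intercalated duct-like cells, against 197, 165 and 205 in the untreated mice, and 0, 5 and 0 acinar-like cells against 56, 76 and 61. The median mitochondrial share per mouse averaged 9.57% in the untreated, 4.36% in the irradiated and 4.88% in the basal sort library. Before any filter the library medians were 19.3%, 5.25% and 5.19% in the same order. The filters on gene number and mitochondrial share kept 4093 of 8277, 2629 of 3319 and 4418 of 5044 barcodes. Levels are given as CPM, a gene's UMIs scaled to all UMIs of the cells summed for 1 mouse. Reads of close copies (the Gstm, Gstp, Gsta and Gstt clusters, and Aldh1a1 with Aldh1a7) may be split or lost in counting, so single members of these families are uncertain. In sums over all cells, fewer cells of a type and less RNA per cell cannot be told apart.

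The levels of the members were first read in the classes of the untreated gland. In the 5 classes with at least 10 cells in every mouse, 30 members reached 10 CPM in at least 1 class. Of these, 12 were highest in intercalated duct-like, 8 in ionocyte-like, 7 in basal duct-like, 2 in granular duct-like and 1 in acinar-like cells. How all genes divide among these classes was not counted, so these counts are not read as a trait of the families. In granular duct-like cells the 12 granular duct markers alone summed to 324949 to 374868 CPM, which leaves less CPM for other genes. For 15 of the 30 members the mice of the highest class did not overlap with those of any other class. Of the 8651 genes at this level 42.0% had no such overlap, with genes that shaped the clusters among them. Among these 5 classes the retinoic acid enzymes Aldh1a3 and Aldh1a1 were highest in ionocyte-like cells. Myoepithelial-like cells, read only in the basal sort, held Aldh1a1 at a level that overlapped with theirs. Aldh1a3 measured 394, 399 and 405 CPM in ionocyte-like cells (399 ± 5.41, SD, n = 3), and the next class, the intercalated duct-like cells, had 12.7 ± 3.50 CPM (n = 3). Aldh1a1 measured 193, 209.9 and 173 CPM in ionocyte-like cells and 28.6 ± 2.63 CPM (n = 3) in basal duct-like cells, the next in order. The third gene of this family, Aldh1a2, had 1 UMI in all kept cells. Both formyl-tetrahydrofolate dehydrogenases were also highest in ionocyte-like cells, Aldh1l1 with 72.4 ± 4.60 CPM and Aldh1l2 with 14.2 ± 8.46 CPM (n = 3), in each case without overlap with the other classes.

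Basal duct-like cells stood apart by Aldh3a1, with 210.1, 212 and 125 CPM in the 3 mice against 12.2 ± 3.38 CPM (n = 3) in the intercalated duct-like cells, the next class. Aldh1a7, a rodent relative of Aldh1a1, had 48.0 ± 20.6 CPM in basal duct-like and 17.7 ± 5.62 CPM in ionocyte-like cells (n = 3). Gsto1 had 166 ± 11.4 CPM in basal duct-like and 75.0 ± 12.5 CPM in granular duct-like cells, and Gsta4 had 338 ± 106 and 154 ± 45.1 CPM in the same order (n = 3). The mice of these pairs of classes did not overlap for any of the 4 genes. Aldh2 was abundant in both basal duct-like (488 ± 38.4 CPM) and intercalated duct-like cells (489 ± 120.3 CPM, n = 3), where the mice overlapped.

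Intercalated duct-like cells were rich in glutathione transferases. The theta-class genes Gstt1 and Gstt2, which act on small halogenated compounds, measured 143 ± 24.7 and 56.1 ± 5.45 CPM there, against 72.6 ± 11.2 and 11.98 ± 4.49 CPM in ionocyte-like cells (n = 3), the next class for both, without overlap. The acinar-like class pools a pair of clusters of unequal depth (median 77923 and 17638 UMIs per cell), and the shallower one, cluster 14, had 163 ± 15.8 CPM of Gstt1, 82.8 ± 4.31 CPM of Gstt2 and 184 ± 7.68 CPM of Gstt3 (n = 3), above the intercalated duct-like means. Gstt3 did not separate these classes beyond the spread, with 72.4 ± 10.2 and 84.4 ± 1.57 CPM (n = 3). The mu-class genes Gstm1 and Gstm2 had means of 601 ± 451 and 260.3 ± 96.7 CPM (n = 3) in intercalated duct-like cells and overlapped with other classes. Untreated mouse 1 stood above the others for Gstm1 in this class, with 1122 CPM against 341 and 339 CPM, and for the alpha-class Gsta3, with 222 CPM against 70.4 and 70.6 CPM. Aldh6a1, which works in valine breakdown, had 39.9 ± 4.06 CPM in intercalated duct-like cells and 22.2 ± 1.86 CPM (n = 3) in granular duct-like cells. As a pooled class, whose sums rest mostly on the deeper cluster 13, acinar-like cells led for Aldh3b2, with 18.3 ± 1.56 CPM (n = 3), while granular duct-like cells led for Aldh1b1, with 18.1 ± 3.42 CPM, and Aldh9a1, with 34.6 ± 4.46 CPM. For Aldh9a1 their mice overlapped with those of the intercalated duct-like cells (28.6 ± 4.82 CPM, n = 3). Aldh1a2, Aldh3b3, Aldh8a1, Gstm3 and Gstt4 had 1 to 3 UMIs each in all kept cells.

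**Figure D1:**
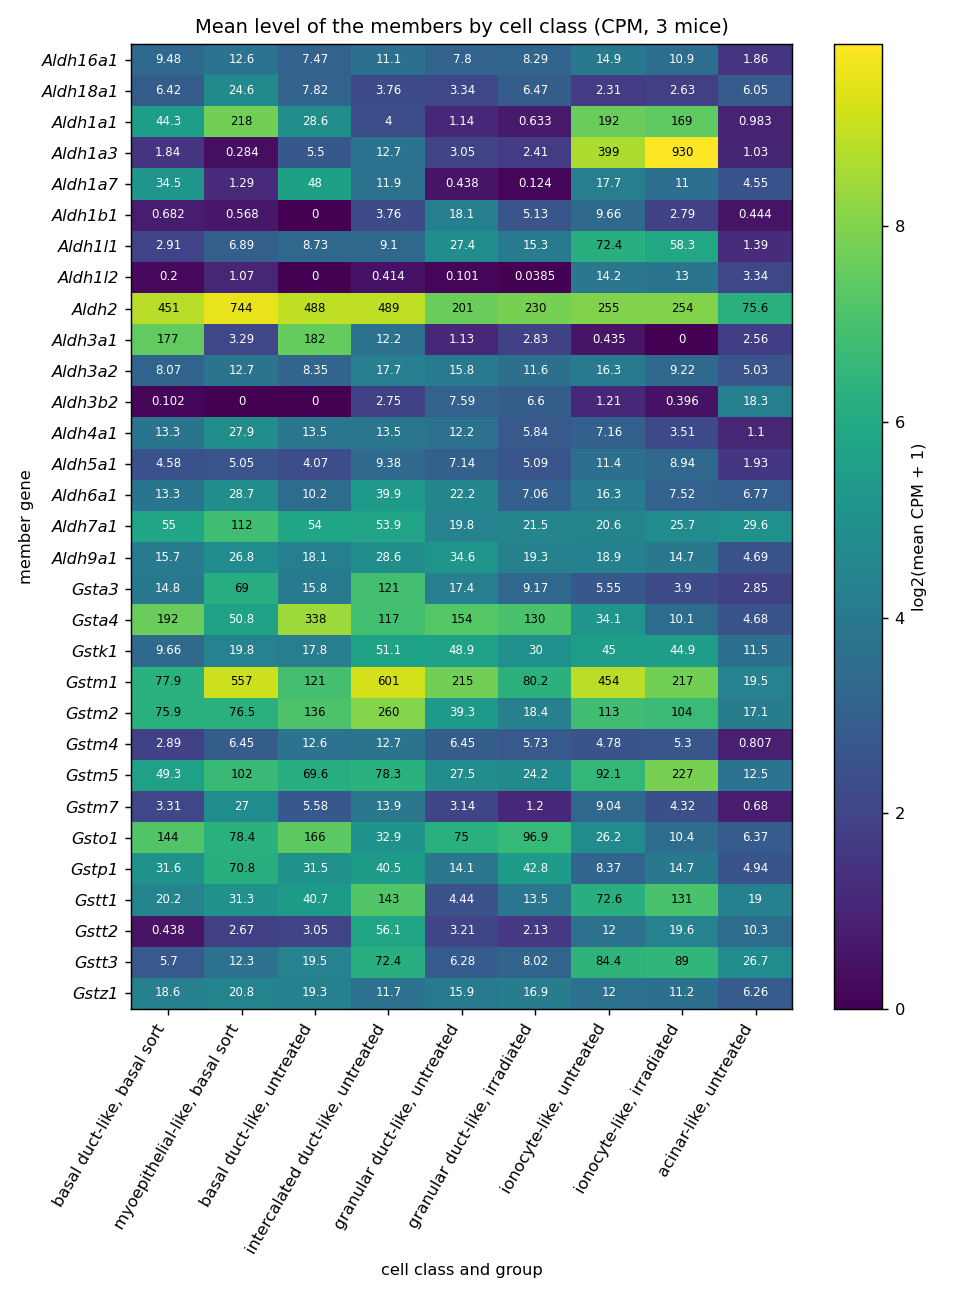
Mean level of each member (rows) in each class and group (columns), as CPM over 3 mice, coloured on a log scale. Aldh1a3 stands out in the ionocyte-like columns, and Aldh1a1 in these and in the myoepithelial-like column. Aldh3a1, Gsto1 and Gsta4 stand out in the basal duct-like columns, and Gstt2 in the intercalated duct-like column.

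The basal sort was compared with the untreated epithelium to ask which members differ between basal and mostly luminal cells without relying on clusters. The basal sort carried more Aldh3a1, Aldh1a7, Gsto1, Gstp1, Aldh2 and Gsta4 and far less Aldh1a3, Aldh1l1, Gstt3 and Gstk1. Of 33 members tested, 7 were higher, 18 lower and 8 did not pass edgeR's quasi-likelihood test at an adjusted p of 0.05 (Benjamini-Hochberg over all genes tested). Over all 12885 genes tested, 36.0% were called higher and 36.8% lower, 72.8% in all, so the members' share called was near the background. The median log2 difference was -0.66 for the members and -0.03 for all genes. The scaling factors (TMM) took 0.52 off each log2 difference relative to plain CPM; without them 13 members were higher and 14 lower. Among the aldehyde dehydrogenases 4 were higher and 10 lower, and among the glutathione transferases 3 and 8.

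Aldh3a1 measured 139, 191 and 176 CPM in the basal sort and 6.00, 7.60 and 10.3 CPM in the untreated epithelium (log2 difference 3.89, SE 0.197, edgeR adjusted p = 2.65e-07). Aldh1a7 measured 37.6, 27.0 and 28.8 against 7.24, 8.57 and 7.65 CPM (1.48, SE 0.160, edgeR adjusted p = 2.78e-05). The third gene in order, Gsto1, measured 175, 142 and 179 against 44.6, 59.3 and 58.0 CPM (1.10, SE 0.157, edgeR adjusted p = 1.67e-04). All 3 basal-sort mice lay above all 3 untreated mice for these genes, and likewise for Gstp1, a pi-class enzyme (38.5, 32.1 and 32.1 against 18.1, 11.7 and 12.4 CPM; log2 difference 0.78). Aldh2 (484, 477 and 451 against 255, 197 and 205 CPM) and Gsta4 (197, 184 and 190.2 against 109.8, 90.3 and 81.9 CPM) rose by smaller log2 differences of 0.59 and 0.51. In the other direction, Aldh1a3 measured 3.27, 1.69 and 1.82 CPM in the basal sort and 86.1, 66.5 and 65.1 CPM in the untreated epithelium (log2 difference -5.43, SE 0.207, edgeR adjusted p = 9.17e-08). Aldh1l1 measured 4.16, 2.43 and 3.29 against 25.6, 22.7 and 24.7 CPM (-3.34). Gstt3 fell by 2.70, Gstk1 by 2.05, Gstm1 by 1.58 and Gstt1 by 1.16 on the log2 scale, with no overlap of mice. Gstm1 measured 126, 113 and 119 CPM in the basal sort and 417, 177 and 166 CPM in the untreated mice, the first of which stood apart. Aldh9a1 was called lower (-0.81) although its mice overlapped, with 17.3, 18.5 and 15.3 against 22.0, 18.2 and 22.5 CPM, and its call was lost on plain CPM (adjusted p = 0.0581).

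Aldh1a1, whose product is the usual target of aldehyde dehydrogenase stem cell assays, measured 67.8, 37.0 and 47.2 CPM in the basal sort and 40.7, 36.4 and 28.5 CPM in the untreated epithelium. The groups overlapped and the log2 difference was 0.02 (SE 0.213, edgeR adjusted p = 0.93). With cells limited to at most 10% mitochondrial counts, which takes out many untreated ionocyte-like cells, it was 1.21 (adjusted p = 6.33e-04), and on plain CPM 0.53 (adjusted p = 0.0358). Within the basal sort Aldh1a1 was highest in the myoepithelial-like cells, with 286, 165 and 204 CPM against 28.6 to 61.0 CPM as class means in the 4 large basal duct-like clusters. Markers of cells that the sort should leave out were summed too. The 9 endothelial markers came to 87.5 to 175 CPM per mouse in the basal sort and 20.1 to 43.6 CPM in the untreated epithelium, and the 8 immune markers to 3.81 to 5.15 and 1.14 to 7.95 CPM. The 7 fibroblast markers came to 1956 to 3051 CPM in the basal sort and 56.7 to 259.8 CPM in the untreated epithelium, with Lum and Dpt at 0 in the basal sort. In the basal duct-like cells of untreated mice these markers came to 2442 to 3313 CPM, with all of them but Dcn at 0. Their part in these differences was not tested.

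**Figure D2:**
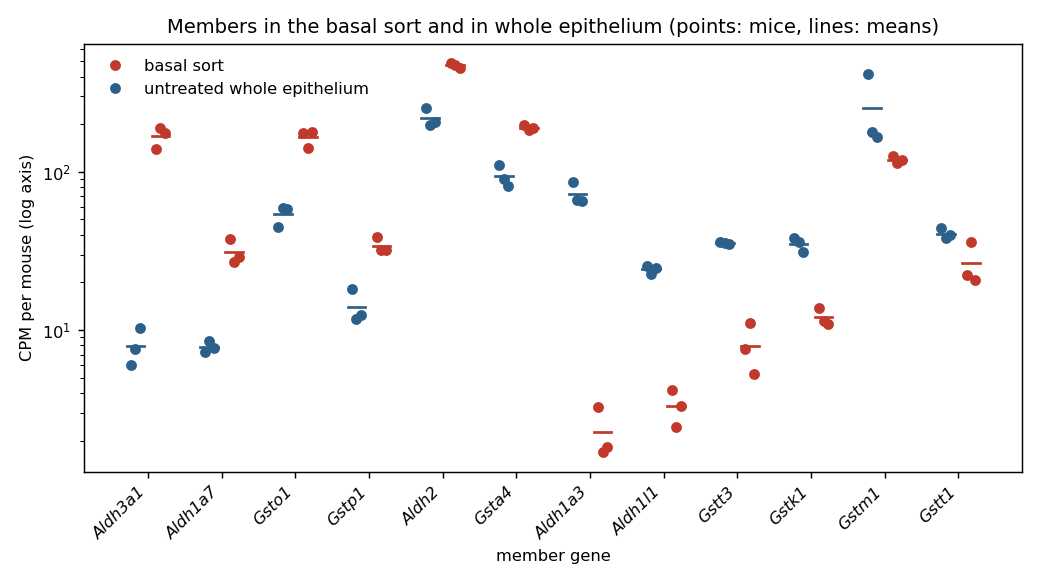
CPM per mouse (points, log axis) and mean (bars) of members in the basal sort and in the untreated epithelium. Aldh3a1 lies between 139 and 191 CPM in the basal sort and at most at 10.3 CPM in the untreated mice, while Aldh1a3 lies at most at 3.27 CPM in the basal sort.

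The basal duct-like cells were not uniform for these genes. Clusters are numbered by the clustering, and values are means over 3 mice. In the 4 large basal duct-like clusters Aldh3a1 had 242 ± 34.1, 159 ± 34.9, 204 ± 31.7 and 106 ± 17.8 CPM (SD, n = 3, clusters 0, 1, 3 and 4). Aldh1a7 followed the same order, with 74.7 ± 7.34, 17.2 ± 4.19, 37.2 ± 15.8 and 7.90 ± 4.93 CPM, and Aldh1a1 did so as well, with 61.0, 35.0, 56.8 and 28.6 CPM. For Aldh3a1 the mice overlapped between clusters 0 and 3 and between clusters 3 and 1, and did not overlap between clusters 1 and 4. Gsta4 was more even, between 175 ± 24.7 and 209.6 ± 6.24 CPM. Myoepithelial-like cells had 3.29 ± 4.98 CPM of Aldh3a1 (7 UMIs in all) and 1.29 ± 1.55 CPM of Aldh1a7, against 744 ± 16.7 CPM of Aldh2 and 557 ± 47.9 CPM of Gstm1 (n = 3). A further cluster of 115 basal-sort cells, number 2, carried markers of more than 1 class, with Krt6a and Duoxa2 among its leading genes, and was left without a class name. Its Gsto1 level was 1090.4, 708 and 939 CPM, above every mouse of the 4 basal duct-like clusters, where means ran from 104 to 163 CPM. The same cells had 429.5 ± 56.4 CPM of Gsta4, 311 ± 48.0 CPM of Aldh3a1 and 363 ± 62.2 CPM of Gstm1 (n = 3), and 17.1 ± 0.671 CPM of Gsto2, the other omega-class gene. Their Aldh1a7 count was 0, which allows up to 1.95 CPM over the group (3 counts, counting error only). These are descriptions of clusters, with no test.

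**Figure D3:**
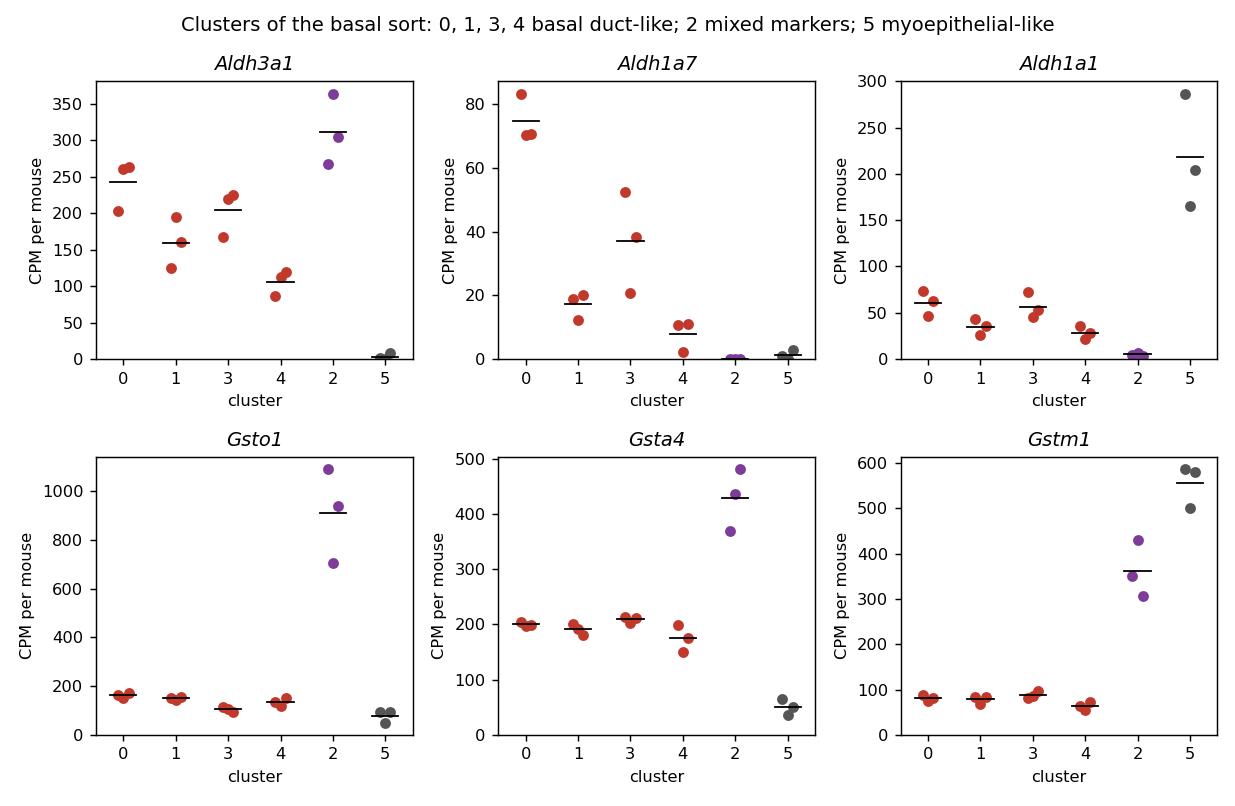
CPM per mouse (points) and mean (bars) of members in clusters and classes of the basal sort. Cluster 2 lies highest for Gsto1, at 708 to 1090.4 CPM, and Aldh3a1 differs among the basal duct-like clusters between means of 106 and 242 CPM.

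Basal duct-like cells were then set against luminal cells (granular duct-like, ionocyte-like and intercalated duct-like together) of the same untreated mice. Aldh3a1, Aldh1a7, Gsto1, Gsta4, Aldh2 and Aldh7a1 were higher in basal cells, and Aldh1a3, Aldh1l1, Gstt2, Gstm1, Gstk1 and Aldh1a1 were among those lower. Of 29 members tested 6 were higher, 10 lower and 13 did not pass, while 13.0% of the 9940 genes tested were called higher and 16.2% lower, 29.2% in all. The median log2 difference was -0.55 for the members and -0.19 for all genes. Among the aldehyde dehydrogenases 4 were higher and 5 lower, and among the glutathione transferases 2 and 5. These values rest on 14 to 24 basal cells per mouse and use the untreated mice of the comparison above a second time.

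Aldh3a1 measured 210.1, 212 and 125 CPM in basal and 3.22, 2.94 and 4.57 CPM in luminal cells (log2 difference 5.51, SE 0.289, edgeR adjusted p = 1.95e-51). Gsto1 measured 159, 179 and 160.1 against 54.1, 50.6 and 44.1 CPM (1.62, SE 0.231, edgeR adjusted p = 2.88e-10), and Gsta4 454, 248 and 313 against 138, 101 and 82.9 CPM (1.51, SE 0.198, edgeR adjusted p = 8.10e-12). In all 3 mice the basal value was the higher one for these genes and for Aldh1a7 (34.1, 71.7 and 38.3 against 8.88, 6.96 and 9.31 CPM; log2 difference 2.42). Aldh2 (449, 489 and 525 against 350.0, 248 and 257 CPM; 0.67) lost its call without mouse 2 (adjusted p = 0.0887) and without mouse 3 (adjusted p = 0.0702). Aldh7a1 (56.8, 39.1 and 66.1 against 33.4, 23.8 and 27.8 CPM; 0.81) lost it without any 1 of the mice, with adjusted p from 0.0764 to 0.345. Against intercalated duct-like cells alone neither passed (0.21, adjusted p = 0.378 for Aldh2; 0.20, adjusted p = 0.651 for Aldh7a1).

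Among the genes lower in basal cells, Aldh1a3 measured 0, 13.0 and 3.48 CPM against 144, 122 and 116 CPM in luminal cells (log2 difference -4.41, SE 0.431, edgeR adjusted p = 1.42e-19; -6.00 without mouse 2). Between basal duct-like and intercalated duct-like cells of the basal-sort mice the Aldh1a3 difference was -0.84 (edgeR adjusted p = 0.519), with TMM. There Aldh1a3 measured 1.84 ± 0.873 against 5.94 ± 8.30 CPM (n = 3), the latter from 3 UMIs. Gstm1 measured 170.4, 114 and 80.0 against 632, 269.8 and 239 CPM (-1.70, SE 0.213, edgeR adjusted p = 8.26e-13). Aldh1b1 had 0 counts in basal cells of all 3 mice against 12.2 ± 2.78 CPM (n = 3) in luminal cells, at least 3.13-fold lower with 3 counts over the basal cells of the group as the floor. Aldh1l1 (-2.60) moved to -4.53 without mouse 1 and to -1.86 without mouse 2. Gstt2 (-2.94) moved to -3.55 without mouse 1, and without mouse 2 to -2.33 with its call lost (adjusted p = 0.074). Against intercalated duct-like cells, the Gsto1 difference was 2.51 in the untreated and 3.39 in the basal-sort mice, where the Gstt2 difference was -6.20. These values include the scaling factors (TMM). As mean CPM, Gsto1 had 166 against 32.9 in the untreated and 144 against 25.3 in the basal-sort mice. Gstt2 had 0.438 against 59.3 CPM in the latter. The gap between 2.51 and 3.39 is thus not read as a difference between the groups. Gstk1 (-1.61) lost its call without mouse 2 (adjusted p = 0.0849), as did Aldh6a1 (-1.54) without mouse 2 (adjusted p = 0.288) or mouse 3 (adjusted p = 0.0652). Aldh1a1 measured 28.4, 26.1 and 31.3 CPM in basal and 69.5, 64.0 and 49.0 CPM in luminal cells (-1.19, SE 0.336, edgeR adjusted p = 0.0026; adjusted p = 0.0823 without mouse 2). Against intercalated duct-like cells alone the sign turned, to 3.02, and with cells of at most 10% mitochondrial counts it was 0.15. Among luminal classes Aldh1a1 was highest in ionocyte-like cells, with 192 ± 18.4 CPM (n = 3). With DESeq2 the calls of Aldh1a1, Aldh6a1, Aldh7a1 and Gstt2 were lost, with adjusted p from 0.0531 to 0.22. Gstp1 (0.71, adjusted p = 0.169) and Aldh9a1 (-0.77, adjusted p = 0.169) did not pass. The 8 acinar markers summed to 1510 to 2154 CPM in these untreated basal cells and to 46.2 to 65.3 CPM over all cells of the basal sort, and their part was not tested.

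The irradiated epithelium was compared with the untreated epithelium over all kept cells. Aldh1a3, Gstp1 and Gstm5 were higher, and Aldh6a1, Gsta3, Gstm1, Gstm2, Gstt2 and Aldh7a1 were lower. Of 35 members tested, 4 were higher, 16 lower and 15 did not pass, with 20.6% of the 11868 genes tested called higher and 19.6% lower, 40.2% in all. The median log2 difference was -0.39 for the members and -0.03 for all genes. TMM took 0.30 off each log2 difference relative to plain CPM, and without it 6 members were higher and 11 lower. Among the aldehyde dehydrogenases 1 was higher and 9 lower, and among the glutathione transferases 3 and 7. The cell mix differed between these libraries: the 7 intercalated duct markers summed to 7226 to 11577 CPM in untreated and 223 to 571 CPM in irradiated mice, the 8 acinar markers to 61377 to 83211 and 634 to 1773 CPM, and the 12 granular duct markers to 97907 to 112729.9 and 174634 to 222072 CPM. Their part in the all-cell values was not tested.

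Aldh1a3 measured 166, 257 and 231 CPM in irradiated and 86.1, 66.5 and 65.1 CPM in untreated mice (log2 difference 1.30, SE 0.165, edgeR adjusted p = 4.90e-04), and at the limit of 10% mitochondrial counts the difference was 2.50. Gstp1 measured 47.6, 37.6 and 29.9 against 18.1, 11.7 and 12.4 CPM (1.15, SE 0.185, edgeR adjusted p = 0.0016), and Gstm5 63.4, 69.2 and 85.5 against 45.5, 35.5 and 42.4 CPM (0.54, SE 0.125, edgeR adjusted p = 0.00934). The groups did not overlap for these 3 genes; the fourth called higher, Gsta2, stayed below 10 CPM and was named after its values were seen. Aldh6a1 measured 8.84, 7.26 and 5.55 against 20.1, 16.4 and 18.2 CPM (-1.65, SE 0.141, edgeR adjusted p = 6.89e-05). Gstm1 measured 109, 126 and 96.6 against 417, 177 and 166 CPM (-1.48), and Gstm2 31.7, 48.1 and 43.5 against 107, 58.5 and 67.3 CPM (-1.18). Untreated mouse 1 was the highest for both, and also for Gsta3 (10.8, 14.8 and 4.69 against 42.6, 15.7 and 16.3 CPM; -1.51, adjusted p = 0.0245), whose call was lost without that mouse (adjusted p = 0.076) or without irradiated mouse 3 (adjusted p = 0.0576), and with DESeq2 (adjusted p = 0.0528). Gstt2 fell by 1.11 on the log2 scale. Aldh7a1, which breaks down lysine, measured 27.4, 22.9 and 21.2 against 29.9, 27.7 and 29.5 CPM (-0.59), but without acinar-like cells the difference was -0.13 (adjusted p = 0.381), and on plain CPM it was -0.29 (adjusted p = 0.0534). Aldh3a1 was lower (3.51, 5.21 and 2.87 against 6.00, 7.60 and 10.3 CPM; -1.26, adjusted p = 0.00573), as was Aldh9a1 (-0.49), whose mice overlapped and whose call was lost on plain CPM (-0.19, adjusted p = 0.19). With mice assigned by the share of hashtag counts, both lost their calls (adjusted p = 0.0891 and 0.061). Among the untreated classes Aldh3a1 was highest in basal duct-like cells. Irradiated mice held 3, 8 and 4 such cells, against 14, 24 and 19 in untreated mice. Over all cells, however, the 11 basal duct markers summed to 345 to 385 CPM in irradiated and 233 to 313 CPM in untreated mice. The part of these cells in the Aldh3a1 difference was not tested. Aldh2 (268, 243 and 223 against 255, 197 and 205 CPM; -0.13), Aldh1a1 (-0.04), Gsta4 (-0.25) and Gsto1 (0.19) did not pass, with adjusted p from 0.263 to 0.889. On plain CPM Gsto1 passed (0.49, adjusted p = 0.00623). There Aldh2, Aldh1a1 and Gsta4 turned sign (0.16, 0.25 and 0.05) and did not pass. At the limit of 10% mitochondrial counts Aldh1a1 passed as higher (1.04, adjusted p = 0.00416) and Aldh2 as lower (-0.34, adjusted p = 0.0347).

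Within granular duct-like cells, Gstp1 was higher after irradiation, and Aldh1b1, Aldh6a1, Gstm1, Gstm2, Aldh1l1 and Aldh9a1 were lower. Of 27 members tested, 3 were higher, 10 lower and 14 did not pass, with 19.4% of the 9589 genes tested called higher and 19.7% lower, 39.1% in all. The median log2 difference was -0.38 for the members and -0.04 for all genes. The other two genes called higher, Gstt1 (13.5 against 4.44 CPM, 1.52) and Aldh18a1 (0.88), had a mean below 10 CPM over the mice and were named after their values were seen. Gstp1 measured 49.8, 41.9 and 36.7 CPM in irradiated and 22.1, 9.68 and 10.6 CPM in untreated mice (1.52, SE 0.220, edgeR adjusted p = 2.28e-04), without overlap. Aldh9a1, which acts on aminoaldehydes, measured 19.7, 18.7 and 19.3 against 39.7, 31.5 and 32.6 CPM (-0.93, SE 0.127, edgeR adjusted p = 1.47e-04). The mitochondrial Aldh1b1 measured 5.53, 5.49 and 4.38 against 22.1, 16.0 and 16.3 CPM (-1.89), and Aldh6a1 8.30, 7.80 and 5.08 against 24.0, 20.3 and 22.4 CPM (-1.73). Aldh1l1 fell by 0.94 and Gstm2 by 1.14 on the log2 scale, and without untreated mouse 1 Gstm2 fell by 0.73. Gstm1 measured 89.3, 102 and 49.3 against 398, 131 and 115 CPM (-1.49, edgeR adjusted p = 0.00785). Without untreated mouse 1 the Gstm1 difference was -0.75 (adjusted p = 0.0266), and DESeq2 gave an adjusted p of 0.0644. Aldh2 (0.11), Gsta4 (-0.34), Gsto1 (0.29) and Aldh1a3 (-0.36) did not pass, with adjusted p from 0.0643 to 0.557; for Gsto1 the mice did not overlap, at 97.4, 96.6 and 96.8 against 89.1, 70.2 and 65.6 CPM, and without untreated mouse 1 it passed (0.39, adjusted p = 0.0301), as it did with other or no size factors and with no gene filter (adjusted p from 0.031 to 0.0474). Aldh1a1 and Aldh3a1 were too low to test. The untreated granular duct-like cells came from cluster 12 and the irradiated ones from clusters 16 and 18. Their median mitochondrial shares were 9.86 ± 0.216% and 3.93 ± 0.361% (n = 3), and their luminal duct markers summed to 3808 to 4757 and 9262 to 9907 CPM. The 7 intercalated duct markers summed to 382 to 2103 CPM in untreated and 127 to 166 CPM in irradiated granular duct-like cells, and the 8 acinar markers to 1549 to 1901 and 355 to 911 CPM. Gstm1 and Gstm2, both lower here, had their highest class means in intercalated duct-like cells. The part of these values was not tested.

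Within ionocyte-like cells, Aldh1a3, Gstm5, Gstt1 and Gstt2 were higher after irradiation and Gsta4, Gsto1, Aldh6a1, Gstm1 and Aldh3a2 were lower. Of 26 members tested, 4 were higher, 6 lower and 16 did not pass, with 15.3% of the 8883 genes tested called higher and 10.7% lower, 26.0% in all. The median log2 difference was -0.12 for the members and -0.02 for all genes. Aldh1a3 measured 1047, 907 and 836 CPM in irradiated and 394, 399 and 405 CPM in untreated mice (1.25, SE 0.0840, edgeR adjusted p = 2.05e-07). Gstm5 measured 258, 176 and 247 against 104, 86.8 and 85.6 CPM (1.31, SE 0.136, edgeR adjusted p = 1.16e-05), and Gstt1 121, 132 and 139 against 68.7, 85.2 and 63.9 CPM (0.90, SE 0.118, edgeR adjusted p = 8.89e-05). The groups did not overlap for these genes. Gstt2 (0.74, adjusted p = 0.0495) lost its call without any 1 mouse other than untreated mouse 2, with adjusted p from 0.0664 to 0.226, and with DESeq2 (adjusted p = 0.198). The other retinoic acid enzyme of these cells, Aldh1a1, measured 164, 169.5 and 172 against 193, 209.9 and 173 CPM (-0.14, SE 0.0964, edgeR adjusted p = 0.306). Aldh2 (0.03), Aldh9a1 (-0.27) and Gstp1 (0.78; 18.6, 16.9 and 8.56 against 11.3, 9.35 and 4.47 CPM) did not pass; Gstp1 passed without irradiated mouse 3 (1.04, adjusted p = 0.024) and with no gene filter (0.80, adjusted p = 0.017).

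Gsta4 measured 14.9, 8.31 and 7.13 CPM in irradiated and 44.8, 27.0 and 30.7 CPM in untreated ionocyte-like cells (-1.92, SE 0.247, edgeR adjusted p = 7.05e-05), and Gsto1 9.29, 11.9 and 9.99 against 31.3, 24.9 and 22.4 CPM (-1.22, SE 0.198, edgeR adjusted p = 5.04e-04). Both are low here and abundant in the granular duct-like cells of the same libraries. The Gsta4 level of ionocyte-like cells was 22.3% of the granular one in untreated and 7.79% in irradiated mice, and for Gsto1 these shares were 34.9% and 10.7%. The summed granular duct markers stood at 2.91% and 1.58% of their granular level, and the 8 acinar markers in ionocyte-like cells at 2361 to 2701 CPM in untreated and 26.0 to 28.9 CPM in irradiated mice, with Aqp5, Lpo and Oit1 at 0 in the latter. The part of RNA from other cells in these values was not tested. Gstm1 measured 235, 199 and 218 against 573, 463 and 326 CPM (-1.04, SE 0.155, edgeR adjusted p = 2.38e-04), and Aldh6a1 9.29, 6.49 and 6.78 against 16.1, 18.2 and 14.7 CPM (-1.19). Aldh3a2, the fatty aldehyde dehydrogenase (-0.91, adjusted p = 0.0187), lost its call without irradiated mouse 2 (adjusted p = 0.162) or untreated mouse 3 (adjusted p = 0.0678), and with DESeq2 (adjusted p = 0.16). The untreated cells came from cluster 10 and nearly all irradiated cells from cluster 17, with median mitochondrial shares of 12.2 ± 0.191% and 5.79 ± 0.422% (n = 3), and the part of this gap was not tested.

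**Figure D4:**
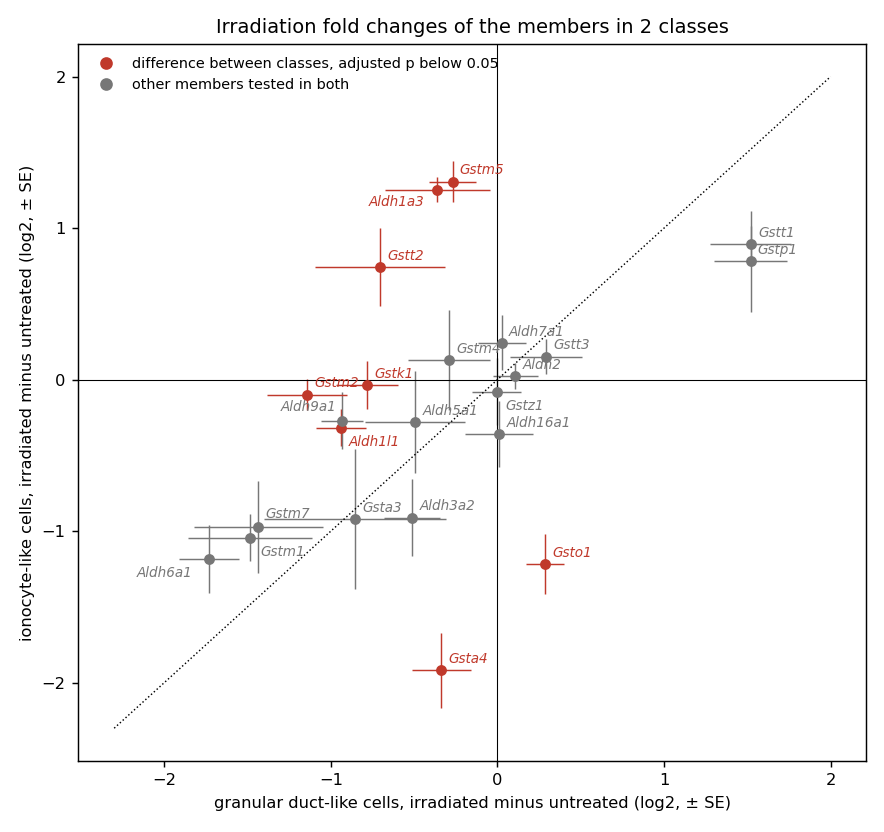
Log2 difference between irradiated and untreated mice (± SE) in granular duct-like cells (x axis) and ionocyte-like cells (y axis) for the 23 members tested in both. Aldh1a3 and Gstm5 lie high on the y axis alone, Gsta4 and Gsto1 lie low on it, and Gstm1 and Aldh6a1 lie below 0 on both axes.

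The difference between the irradiation effects in the 2 classes was tested itself, with the mouse as a block. Of 30 members tested, 6 differed toward a higher effect in ionocyte-like cells, 2 toward a lower one and 22 did not pass, while 5.31% and 8.18% of the 9988 genes tested were called in these directions, 13.5% in all. The median difference was 0.20 for the members and -0.03 for all genes. On plain CPM 3 members were higher and 2 lower. Gstm5 (1.52, SE 0.199, edgeR adjusted p = 4.16e-05), Gsto1 (-1.50, SE 0.197, edgeR adjusted p = 4.16e-05) and Gsta4 (-1.60, SE 0.210, edgeR adjusted p = 4.22e-05) stayed past the threshold in every alternative run for this comparison. Aldh1a3 (1.58, SE 0.320, edgeR adjusted p = 0.00242) and Gstm2 (0.99, SE 0.201, edgeR adjusted p = 0.00246) differed as well, but not at the limit of 10% mitochondrial counts (1.06, adjusted p = 0.318, and 0.64, adjusted p = 0.126). For Aldh1a3 the granular duct-like level lay at or below 3.67 CPM in every mouse. Aldh1l1 (0.60), Gstk1 (0.72) and Gstt2 (1.41) had adjusted p from 0.028 to 0.0497, and each lost its call without single mice, on plain CPM, with DESeq2 and at that limit.

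**Figure D5:**
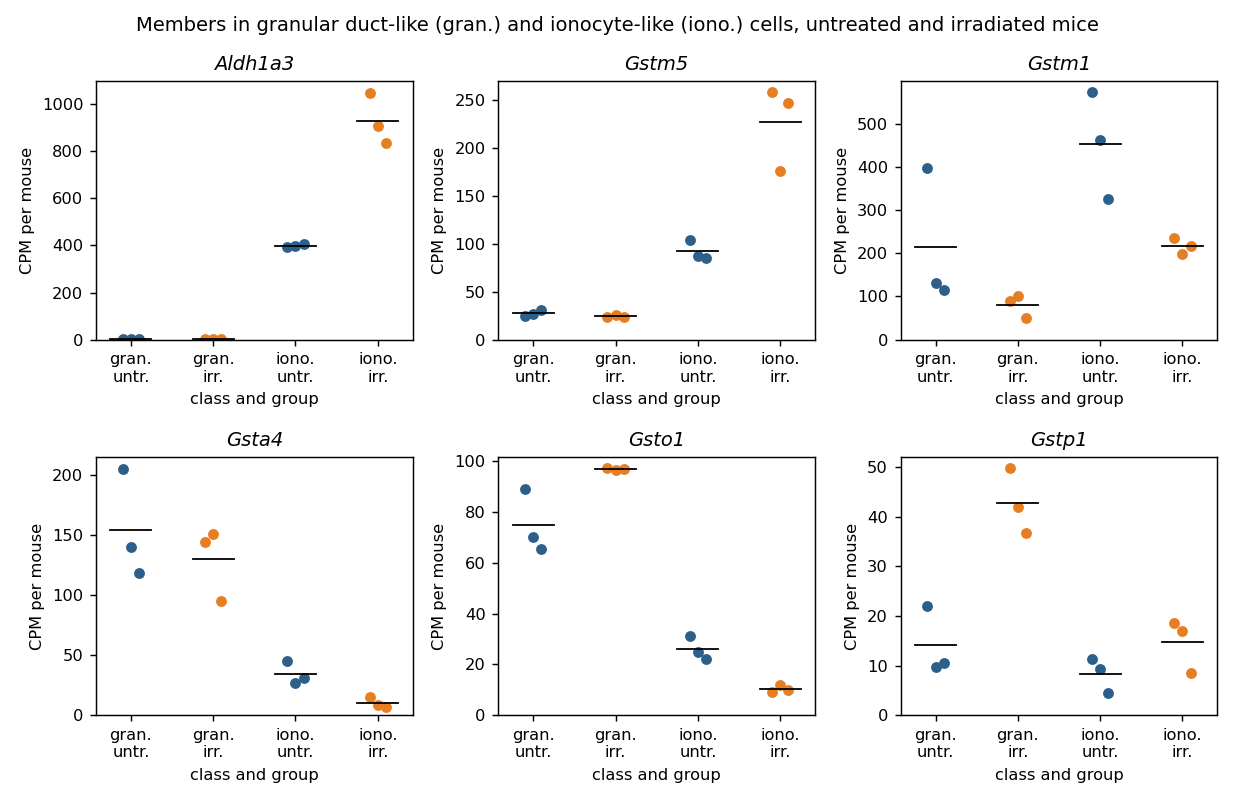
CPM per mouse (points) and mean (lines) of 6 members in granular duct-like (gran.) and ionocyte-like (iono.) cells of untreated (untr.) and irradiated (irr.) mice. Irradiated ionocyte-like cells lie above the untreated ones for Aldh1a3 and Gstm5 and below them for Gstm1, Gsta4 and Gsto1, and irradiated granular duct-like cells lie above the untreated ones for Gstp1.

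Genes that share pathways with the members were counted from 5 lists. Of the 38 genes of glutathione synthesis and Nrf2 targets, 35 were tested in the basal sort comparison, with 11 higher and 12 lower (36.0% and 36.8% of all genes; median log2 difference 0.23, all genes -0.03). Higher genes included Bach1, the repressor that competes with Nrf2 (133 against 14.0 CPM, log2 difference 2.73), and Ugdh (2.11), and lower ones G6pdx (-2.15) and Taldo1 (-1.57) of the pentose phosphate pathway. Within untreated mice 9 of 29 were higher in basal cells and 4 lower (13.0% and 16.2% of all genes; median 0.01, all genes -0.19), with Bach1 at 1.92 and G6pdx at -3.29. Srxn1, which repairs peroxiredoxins, was 2.12 higher in the basal cells of these mice, while in the basal sort it had 26.7 against 28.4 CPM in the untreated epithelium (-0.58, adjusted p = 0.0226; -0.08 on plain CPM, adjusted p = 0.72).

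After irradiation 12 of 32 genes of this list were higher and 4 lower over all cells (20.6% and 19.6% of all genes; median 0.11, all genes -0.03). The counts were 13 and 1 of 30 in granular duct-like cells (19.4% and 19.7% of all genes; median 0.35, all genes -0.04) and 11 and 4 of 29 in ionocyte-like cells (15.3% and 10.7% of all genes; median 0.23, all genes -0.02). Srxn1 had 193 against 16.2 CPM in granular duct-like cells (log2 difference 3.48) and 171 against 38.8 CPM in ionocyte-like cells (2.16). Haem oxygenase Hmox1 had 427 against 61.4 CPM in granular duct-like cells (2.70), and the glutathione-degrading Chac1 had 47.0 against 1.14 CPM (5.16). Bach1 had 31.7 against 16.1 CPM in ionocyte-like cells (1.02).

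Retinoid genes, which surround the Aldh1a step, had 7 higher and 3 lower of 17 tested in the basal sort (median 0.05, all genes -0.03) and 2 higher and 1 lower of 12 in basal cells within mice (median -0.06, all genes -0.19). Among all genes, 36.0% were called higher and 36.8% lower in the basal sort, and 13.0% and 16.2% within mice. Adh1, which oxidises retinol and ethanol, had 4.12 against 39.5 CPM in the basal sort (-3.81) and 7.19 against 49.6 CPM within mice (-3.05). After irradiation 1 of 13 was higher and 3 lower over all cells (median -0.04, all genes -0.03). The counts were 1 and 3 of 11 in granular duct-like cells (median -0.20, all genes -0.04) and 2 and 1 of 9 in ionocyte-like cells (median -0.08, all genes -0.02). Of all genes, 20.6% and 19.6% were called over all cells, 19.4% and 19.7% in granular duct-like and 15.3% and 10.7% in ionocyte-like cells. In granular duct-like cells the fatty acid and retinoic acid carrier Fabp5 was higher (167 against 63.0 CPM, 1.32) and Adh1 lower (32.6 against 54.9 CPM, -0.85).

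The shares of all genes called higher and lower, given with the first list, and the medians of all genes (-0.03 in the basal sort and over all cells after irradiation, -0.19 within untreated mice, -0.04 in granular duct-like and -0.02 in ionocyte-like cells) stand beside the next 3 lists too. Of the membrane-bound glutathione transferases and their relatives, 1 of 3 tested was higher and 1 lower both in the basal sort (median 0.25) and over all cells after irradiation (median 0.20). In the latter Mgst3 was the lower one, and on plain CPM its call was lost (-0.07, adjusted p = 0.7). None of 3 passed within untreated mice (median 0.09). Mgst1 was higher in irradiated granular duct-like cells (222 against 88.3 CPM, 1.25), the only change among 2 tested there (median 0.50), while 2 of 3 were lower in ionocyte-like cells (median -0.39), Mgst3 among them (59.6 against 81.5 CPM, -0.39). Aldehyde and ketone reductases had 2 higher and 8 lower of 14 in the basal sort (36.0% and 36.8% of all genes; median -0.60) and 1 and 3 of 13 within untreated mice (median 0.16). After irradiation the counts were 3 and 3 of 14 over all cells (median 0.09), 2 and 3 of 13 in granular duct-like cells (median -0.05) and 0 and 2 of 10 in ionocyte-like cells (median -0.14). Cbr2, a carbonyl reductase, was higher in the basal sort (162 against 49.6 CPM, 1.19) and lower after irradiation in granular duct-like (26.9 against 45.9 CPM, -0.86) and ionocyte-like cells (24.7 against 81.0 CPM, -1.68).

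One-carbon folate enzymes, whose formyl-folate is the substrate of Aldh1l1 and Aldh1l2, had 4 higher and 3 lower of 10 in the basal sort (36.0% and 36.8% of all genes; median 0.10) and 2 and 0 of 9 within untreated mice (median 0.59). Shmt1, the cytosolic serine hydroxymethyltransferase, was higher in both (1.65 and 2.69). After irradiation 3 were higher and 2 lower of 9 over all cells (median -0.10), 2 and 2 of 7 in granular duct-like cells (median 0.71) and 0 and 1 of 6 in ionocyte-like cells (median 0.25). The mitochondrial Mthfd2 had 39.2 against 11.3 CPM in granular duct-like cells (1.75). All 5 lists were read against the same fits and samples as the members.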

How the data were processed

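Cells of 3 libraries (3 hashtagged mice each) were read from the authors' deposited matrices, which hold raw UMI counts per gene and barcode with 3 hashtag rows. Per the submitters' processing notes, Cell Ranger 6.1.2 and mm10 were used; other settings are not given in the sources used here. From these deposited counts, barcodes with at least 500 genes and at most 20% mitochondrial counts were assigned to mice with HTODemux (Seurat 5.3.0, positive quantile 0.99, 5 starting clusters), and Scrublet doublets were removed. Scrublet separated hashtag doublets poorly, so some doublets may remain. Cells were clustered without the members (scanpy 1.11.5, 10000 counts per cell, 2000 variable genes, 30 components, 15 neighbours, Leiden resolution 1) and named from 16 marker lists; clusters with markers of several classes stayed unnamed. Counts were summed per mouse and tested with edgeR 4.0.16 (R 4.3.3; filterByExpr, TMM, quasi-likelihood F test, two-sided, Benjamini-Hochberg at 0.05); the within-mouse comparisons had the mouse as a block. All adjusted p-values are edgeR's over all genes tested unless DESeq2 is named. The fits were tested on simulated data.

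Both gene families and all lists were picked with earlier results of these data known; within the families, membership follows from the symbol alone. Per-mouse values are given for Aldh1a1, Aldh1a3, Aldh2, Aldh3a1, Aldh9a1, Gstp1, Gstm1, Gsta4 and Gsto1, and for up to 6 members per direction in each comparison with the largest called change, at least 10 CPM on average and no overlap of mice; pathway lists follow the same rule with up to 3 genes per direction. Not every gene that the rule picks from these lists is reported here. Alternatives were other size factors, gene filters, DESeq2, hashtag and mitochondrial limits, clustering with the members, the replicate block and leaving out each mouse. The irradiation comparison in intercalated duct-like cells was not run, since irradiated mice had 5, 7 and 0 such cells. Promoter windows came from RefSeq on GRCm38.p6. Counting intervals cover counting error only.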

Additional observations from a re-analysis of the deposited data

Results flagged for a closer look

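Of all 9988 genes tested, 13.5% were called for an irradiation effect that differed between ionocyte-like and granular duct-like cells. This was a direct test (edgeR's interaction term, mouse as a block). Of the 30 members tested, 8 were called. As ionocyte-like minus granular duct-like log2 effects, these were Gsta4 at -1.60 (SE 0.210, edgeR adjusted p = 4.22e-05), Gsto1 at -1.50 (SE 0.197, edgeR adjusted p = 4.16e-05), Aldh1a3 at 1.58 (SE 0.320, edgeR adjusted p = 0.00242), Gstm5 at 1.52 (SE 0.199, edgeR adjusted p = 4.16e-05), Gstt2 at 1.41 (SE 0.461, edgeR adjusted p = 0.0497), Gstm2 at 0.99 (SE 0.201, edgeR adjusted p = 0.00246), Gstk1 at 0.72 (SE 0.228, edgeR adjusted p = 0.0429) and Aldh1l1 at 0.60 (SE 0.175, edgeR adjusted p = 0.028). Gstm2 fell within granular duct-like cells (-1.14) and did not pass within ionocyte-like cells (-0.10). At the limit of 10% mitochondrial counts the calls of Aldh1a3 (1.06, edgeR adjusted p = 0.318) and Gstm2 (0.64, edgeR adjusted p = 0.126) were lost. Aldh1l1 gave up its call without untreated mouse 1 (adjusted p = 0.0794), untreated mouse 3 (adjusted p = 0.133) or irradiated mouse 2 (adjusted p = 0.0807). The calls of Gstk1 and Gstt2 were lost without each of 5 single mice, with adjusted p up to 0.187 and 0.145.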

How the results depend on the processing

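Of 1090 gene-level values recomputed under the alternatives, 67 lost the call, 13 gained one and 18 changed sign. In 14 of these sign changes neither value passed the threshold (8 for Aldh1a1, 4 for Aldh2 and 1 each for Gsta4 and Gstp1). After irradiation over all cells, plain CPM gave 0.25 for Aldh1a1, 0.16 for Aldh2 and 0.05 for Gsta4, and in basal against intercalated duct-like cells alone Gstp1 was -0.12. The other 4 sign changes, with a called value on at least 1 side, were Aldh1a1: over all cells after irradiation it was 1.04 with at most 10% mitochondrial counts, and in basal against luminal cells it was 0.15 with that limit, 3.02 against intercalated duct-like cells alone and 4.42 with the basal-sort mice against their own intercalated duct-like cells. These last 2 alternatives, plain CPM and the granular class without cluster 18 were added after seeing the data. In the basal-sort mice the Aldh1a1 value rests on 2 UMIs in the intercalated duct-like cells. Counts of members past the threshold that moved by over 1.5 times were 13 higher in the basal sort on plain CPM, 5 lower in basal cells within mice with DESeq2, 6 higher in granular duct-like cells with no gene filter and 3 lower in ionocyte-like cells at the 10% limit. For the difference between classes, members higher numbered 3 on plain CPM, 3 with DESeq2 and 1 at the 10% limit. The cause was not tested. Leaving out each mouse in turn gave 7 to 9 members higher and 16 to 19 lower in the basal sort, 4 to 5 and 6 to 9 in basal cells within mice, 4 and 13 to 16 over all cells after irradiation, 2 to 5 and 8 to 10 in granular duct-like cells, 3 to 4 and 4 to 7 in ionocyte-like cells, and 3 to 6 and 2 for the difference between classes. The basal count of 6 came without mouse 2, the granular count of 5 without untreated mouse 1, and the counts of 3 for the difference without untreated mouse 1, untreated mouse 3 or irradiated mouse 2.

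Same-number correlations of the deviations between groups ran from -0.189 to 0.0795. For basal and luminal sums of the same mice they also lay near 0, from -0.0398 to -0.0167. These correlations therefore cannot show whether hashtag numbers pair the mice of different libraries. With the replicate block the basal sort had 7 members higher and 18 lower, all cells after irradiation 4 and 15, granular duct-like cells 2 and 10, and ionocyte-like cells 4 and 6, with Gstp1 gained (0.86, adjusted p = 0.0209) and Gstt2 lost (0.67, adjusted p = 0.072); without the mouse block, basal against luminal cells had 6 and 10. The hashtag share rule was not run for the class comparisons, since it left some mice with too few cells. Low counts limit members under 10 CPM and the basal cells of untreated mice.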

Other observations

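The acinar-like cells of the untreated gland fell into a pair of clusters that differed in their glutathione transferases, described here as values with no test. Cluster 14 (22, 37 and 25 cells in the 3 mice) held the Gstt1, Gstt2 and Gstt3 levels given above, and cluster 13 (34, 39 and 36 cells) had 0.236 ± 0.215, 0.902 ± 0.787 and 6.22 ± 0.634 CPM of these genes (SD, n = 3). Aldh2 stood at 379 ± 34.3 CPM in cluster 14 and 36.2 ± 2.08 CPM in cluster 13, Aldh7a1 at 108 ± 21.7 and 19.6 ± 2.79 CPM, and Gstm1 at 124 ± 57.2 and 6.56 ± 0.653 CPM (n = 3). The mice of these clusters did not overlap in CPM for any of the 6 genes. Median depth was 77923 UMIs per cell in cluster 13 and 17638 in cluster 14. By itself, a lower CPM in cluster 13 therefore need not mean fewer UMIs of a gene per cell. For Gstt1, Gstt2, Gstt3, Gstm1 and Aldh2 the CPM gap was wider, as a ratio, than the gap in median depth. For Aldh7a1 the CPM gap was nearer to the depth gap. UMIs per cell were not computed. The few intercalated duct-like cells of the basal sort (19, 72 and 18 per mouse) had 332, 274 and 394 CPM of Gstt1, above the 172, 131 and 127 CPM of the same class in the untreated epithelium.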
